A study of Rattus norvegicus with 24 samples.

Results

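Fos, Egr1, Atf3 and Myc were followed in the plantaris, a calf muscle, of rats. The 4 genes are the immediate early genes Fos, Egr1 and Atf3 together with Myc, taken by Ensembl gene ID (Fos ENSRNOG00000008015, Egr1 ENSRNOG00000019422, Atf3 ENSRNOG00000003745 and Myc ENSRNOG00000004500) from a table of 31998 genes. All 4 passed the filter on low counts, which left 16661 genes to test. The rats were females aged 14 months from generation 19 of the LRT and HRT lines, which were bred for low and high gains in running capacity with endurance training. There were 4 groups with 6 libraries each, namely LRT overload, LRT control, HRT overload and HRT control. In the overload groups the gastrocnemius and soleus of one leg had been cut away, so that the plantaris carried their load, and the plantaris was collected 14 days later. The labels name no transgene and no drug in any group. Whether the control plantaris was taken from separate rats or from the opposite leg is not stated, so a p-value here speaks only for the spread among these libraries.

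Immediate early genes are transcribed within minutes of a signal, without new protein synthesis, because the factors that switch them on are already present in the cell. Growth factors, stretch, calcium signals and cell stress reach them through mitogen-activated protein kinases and through serum response factor, which binds CArG boxes in their promoters. Their products are themselves transcription factors that act on a later wave of genes, and their transcripts are short-lived. In skeletal muscle they are known to rise briefly after contraction, stretch or injury, and Myc is known for driving ribosome production in growing muscle.

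Library totals ran from 26997674 to 34254957 estimated counts and each member had between 67 and 9243 estimated counts in every library. Levels are given as CPM, that is, counts relative to the size of the library after trimmed mean of M values (TMM) scaling. The RNA integrity number (RIN) was 8.67 ± 0.258 in LRT overload and 8.28 ± 0.147 in LRT control, and 8.97 ± 0.327 in HRT overload and 8.27 ± 0.216 in HRT control (SD, n = 6 each), so RNA quality moved with overload. The gene IDs are not paired with names for other genes here, so the tissue was not checked against muscle markers and no marker of another cell type was read. In whole muscle, more cells of a type and more RNA per cell cannot be told apart.

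Overload was tested against control in each line with edgeR's quasi-likelihood test, adjusted over all tested genes by the method of Benjamini and Hochberg at a threshold of 0.05. In LRT muscle Egr1, Atf3 and Myc rose and Fos did not pass, so 3 of 4 members were called upward, where 28.9% of all tested genes were. In HRT muscle all 4 members rose, where 31.9% of all tested genes did. Calls with an estimated rise of more than 2-fold were found for 3 of 4 members in LRT, against 12.9% of tested genes, and for 4 of 4 in HRT, against 15.3%. The test was against no change, and only Egr1 in HRT had a 95% interval wholly above 2-fold (2.35 to 6.62). Without LRT overload replicate 3, Egr1 in LRT was 0.98 on the log2 scale, just under 2-fold. The median log2 fold change of the members was 1.30 in LRT and 1.84 in HRT, beside a median over all tested genes of −0.02 in each line. The members were chosen with earlier results of these data known, so these shares and medians describe them and do not test them as a set. With libraries scaled by their totals alone, the median over all genes moved to 0.22 in LRT and 0.27 in HRT, and each member still moved upward relative to it. That scaling also changed the split of calls, with 6765 of 8658 called genes upward in LRT and 7942 of 10180 in HRT, against 4808 of 9524 in LRT and 5319 of 10523 in HRT after TMM.

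**Figure D1:**
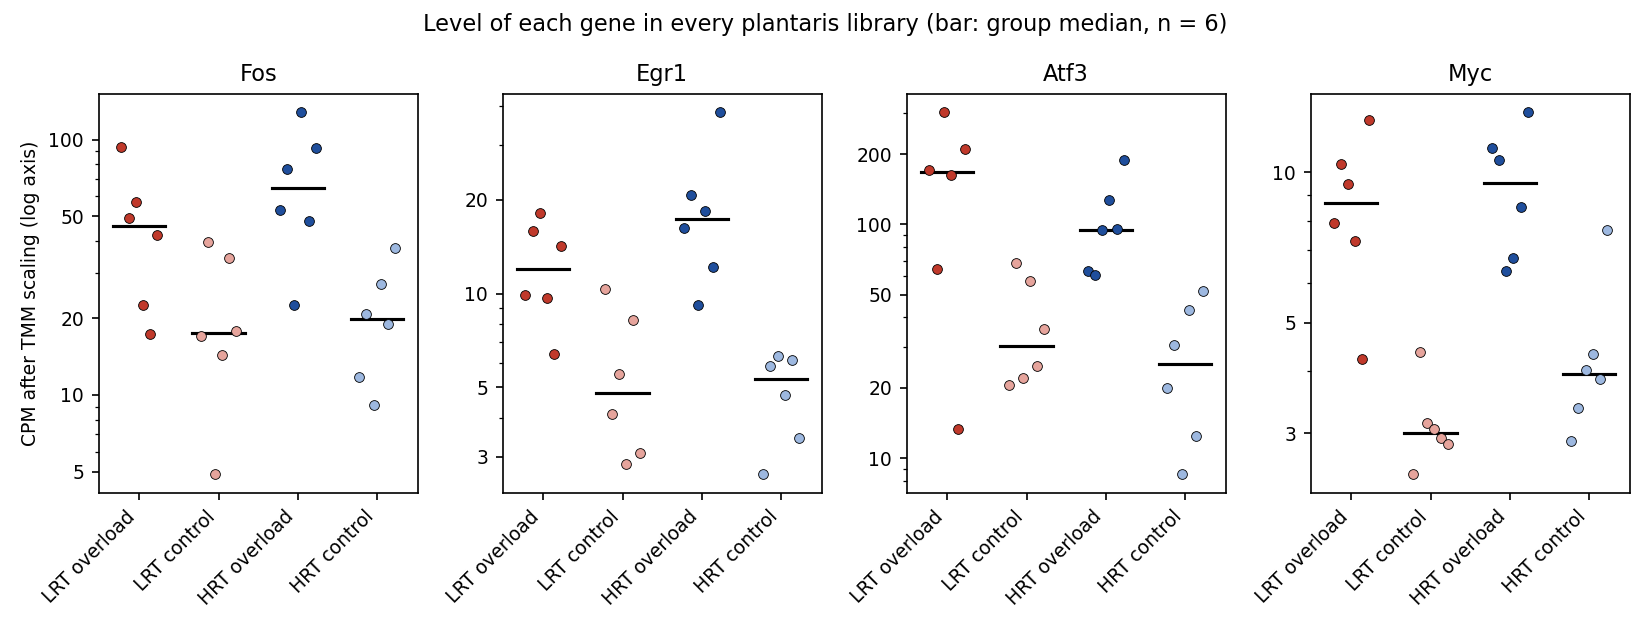
CPM after TMM scaling (vertical, log axis) of Fos, Egr1, Atf3 and Myc in each of the 24 libraries, with points in replicate order within a group and a bar at the group median (n = 6). Only Egr1 and Atf3 in HRT have every overload library above every control library, and LRT overload replicate 5 is the lowest point of its group in all 4 panels.

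Fos encodes a subunit of the AP-1 transcription factor, in which it pairs with a Jun protein. In LRT overload muscle Fos had a lowest, median and highest level of 17.3, 45.7 and 93.6 CPM, against 4.88, 17.4 and 39.9 CPM in LRT control muscle. The groups overlapped, with 4 of 6 overload libraries above every control library. The log2 fold change was 1.13 ± 0.49 (SE), a fold change of 2.20 with an unadjusted 95% interval of 1.09 to 4.43, and the call missed the threshold (edgeR adjusted p = 0.0516, unadjusted p = 0.0297). The result lay at the edge of the threshold, since DESeq2 and limma-voom called it (adjusted p = 0.0271 and 0.0374). It also passed when LRT overload replicate 4 or 5, or LRT control replicate 2 or 5, was left out (1.28, 1.30, 1.41 and 1.32 on the log2 scale, with edgeR adjusted p of 0.0355, 0.0273, 0.0237 and 0.0367). Without LRT overload replicate 1, the highest Fos library of its group, it was 0.81 on the log2 scale (edgeR adjusted p = 0.163). Fos in LRT also missed the threshold with RIN as a covariate (edgeR adjusted p = 0.0715). The same held with no filter on low counts and with the compared groups alone (edgeR adjusted p = 0.0811 and 0.0744). Of 23 other settings, 11 called it.

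In HRT overload muscle Fos had a lowest, median and highest level of 22.5, 64.7 and 129 CPM, against 9.11, 19.9 and 37.5 CPM in HRT control muscle. Here 5 of 6 overload libraries lay above every control library, and only replicate 3 overlapped with them. Fos rose with a log2 fold change of 1.75 ± 0.49 (SE), a fold change of 3.36 with a 95% interval of 1.65 to 6.84 (edgeR adjusted p = 0.00398). With RIN as a covariate Fos still passed, at 1.99 on the log2 scale (edgeR adjusted p = 0.0241). Of the tested genes, 88.9% in LRT and 93.4% in HRT had a lower log2 fold change than Fos.

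Egr1 encodes a zinc finger transcription factor that is induced by growth signals through serum response factor. The 250 bases before its annotated start are shown because they hold matches to motifs known from promoters of immediate early genes (RefSeq, GRCr8 chr18:26736828-26737077, plus strand, 5′ to 3′). Of the 4 members, 1 had a promoter in the sequence table used here, and Fos, Atf3 and Myc are named only. Capitals mark matches to the serum response CArG box and to TGACGT, the half-site of the cyclic AMP response element, which reads ACGTCA where it lies on the other strand.
Egr1: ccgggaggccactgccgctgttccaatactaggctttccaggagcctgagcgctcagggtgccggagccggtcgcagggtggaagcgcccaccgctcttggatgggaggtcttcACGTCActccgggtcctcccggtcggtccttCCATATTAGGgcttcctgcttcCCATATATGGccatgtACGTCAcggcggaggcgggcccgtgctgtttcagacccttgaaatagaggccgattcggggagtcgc
The CArG box matched at 2 places, from 105 to 96 and from 83 to 74 bases before the start. TGACGT matched at 2 places on the other strand, from 136 to 131 and from 67 to 62 bases before the start, and none of these matches overlap. Over the same 250 bases of 33469 rat promoters, 1.497% held at least 1 CArG box and 0.0209% held 2 or more. At least 1 TGACGT was held by 6.95% and 2 or more matches by 1.89%. A single TGACGTCA counts here as 2 overlapping matches, 1 on each strand. The 1.89% is therefore not the share of promoters with 2 separate half-sites, as in Egr1. Both strands were also searched for TGACGTCA, TGANTCA (the AP-1 site) and TATAAA (the TATA box), which are not in this window and are held by 1.59%, 6.34% and 12.9% of promoters. These are matches of letters, and binding was not measured.

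**Figure D2:**
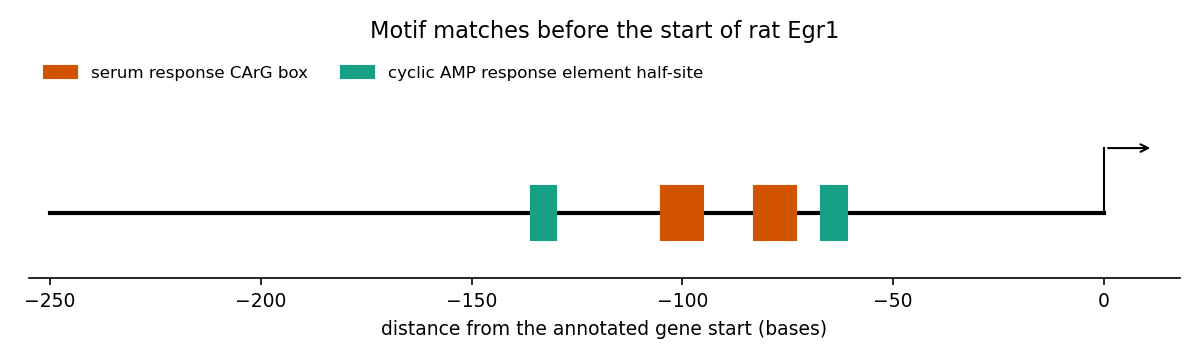
Position of the motif matches (coloured boxes, to scale) along the 250 bases before the annotated start of rat Egr1, with distance from the start in bases on the horizontal axis and an arrow at the start. The 2 CArG boxes lie between the 2 half-sites of the cyclic AMP response element.

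In LRT overload muscle Egr1 had a lowest, median and highest level of 6.41, 12.05 and 18.2 CPM, against 2.85, 4.81 and 10.4 CPM in LRT control muscle. The groups overlapped, with 3 of 6 overload libraries above every control library. Egr1 rose with a log2 fold change of 1.12 ± 0.35 (SE), a fold change of 2.18 with a 95% interval of 1.31 to 3.62 (edgeR adjusted p = 0.00987). In HRT overload muscle the lowest, median and highest levels were 9.18, 17.4 and 38.4 CPM, against 2.63, 5.31 and 6.32 CPM in HRT control muscle. Every HRT overload library lay above every HRT control library, a separation found upward for 21.4% of all tested genes in HRT and 17.3% in LRT. The log2 fold change in HRT was 1.98 ± 0.36 (SE), a fold change of 3.95 with a 95% interval of 2.35 to 6.62 (edgeR adjusted p = 5.91e-05). HRT overload replicate 6 held the highest Egr1 level of all libraries, and without it the log2 fold change in HRT was 1.68 (edgeR adjusted p = 0.00018).

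Atf3 encodes a transcription factor of the ATF/CREB family that is induced by cell stress and can act as a repressor. In LRT overload muscle Atf3 had a lowest, median and highest level of 13.3, 167 and 304 CPM, against 20.5, 30.2 and 68.5 CPM in LRT control muscle. Replicate 5, at 13.3 CPM, was below every control library of its line, and replicate 2 came next at 64.3 CPM. Above every control library were 4 of 6 overload libraries. Atf3 rose with a log2 fold change of 2.02 ± 0.56 (SE), a fold change of 4.04 with a 95% interval of 1.81 to 9.04 (edgeR adjusted p = 0.00412). Without replicate 5 it was 2.26 on the log2 scale (edgeR adjusted p = 0.000404), and limma-voom, which averages on the log scale, gave 1.66 (adjusted p = 0.0159).

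In HRT overload muscle Atf3 had a lowest, median and highest level of 60.9, 95.03 and 188 CPM, against 8.51, 25.2 and 52.0 CPM in HRT control muscle. Every overload library lay above every control library. Atf3 rose with a log2 fold change of 1.92 ± 0.56 (SE), a fold change of 3.79 with a 95% interval of 1.70 to 8.49 (edgeR adjusted p = 0.00502). With RIN as a covariate the log2 fold change was 2.07 and the call lay just inside the threshold (edgeR adjusted p = 0.0467). Of the tested genes, 96.6% in LRT and 94.7% in HRT had a lower log2 fold change than Atf3.

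Myc encodes a transcription factor that pairs with Max and drives genes of ribosome production, metabolism and cell growth. In LRT overload muscle Myc had a lowest, median and highest level of 4.23, 8.70 and 12.7 CPM, against 2.48, 2.998 and 4.36 CPM in LRT control muscle. Overload replicate 5 alone reached down to the control range, and the other 5 overload libraries lay above every control library. Myc rose with a log2 fold change of 1.47 ± 0.25 (SE), a fold change of 2.76 with a 95% interval of 1.94 to 3.93 (edgeR adjusted p = 2.70e-05). In HRT overload muscle the lowest, median and highest levels were 6.36, 9.55 and 13.2 CPM, against 2.89, 3.94 and 7.67 CPM in HRT control muscle. Control replicate 6, at 7.67 CPM, overlapped with the 2 lowest overload libraries, and the other 5 control libraries lay below every overload library. The log2 fold change in HRT was 1.12 ± 0.24 (SE), a fold change of 2.17 with a 95% interval of 1.54 to 3.06 (edgeR adjusted p = 0.000316). Of the tested genes, 92.8% in LRT and 86.2% in HRT had a lower log2 fold change than Myc.

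Ordered by their means, both overload groups stood above both control groups for each member. Fos averaged 46.9 ± 27.5 CPM in LRT overload, 21.4 ± 13.1 in LRT control, 70.1 ± 37.4 in HRT overload and 20.9 ± 10.4 in HRT control (SD, n = 6 each). Egr1 averaged 12.4 ± 4.45 CPM in LRT overload, 5.69 ± 3.02 in LRT control, 19.2 ± 10.3 in HRT overload and 4.86 ± 1.53 in HRT control. For both genes HRT overload was the highest group, then LRT overload, LRT control and HRT control. Atf3 averaged 154 ± 104 CPM in LRT overload, 38.2 ± 20.3 in LRT control, 105 ± 47.7 in HRT overload and 27.7 ± 17.3 in HRT control, so LRT had the higher mean in both states. Myc averaged 8.68 ± 2.91 CPM in LRT overload, 3.14 ± 0.640 in LRT control, 9.44 ± 2.70 in HRT overload and 4.36 ± 1.70 in HRT control, so LRT had the lower mean in both states. No step between the overload groups or between the control groups passed the edgeR test for any member. The libraries on either side of each such step overlapped. The middle step passed the edgeR test for Egr1 and missed it for Fos, and for Atf3 and Myc it joins groups of different line and state, whose libraries overlap and which were not tested against each other.

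The study's lines raise the question of whether the responses differ. For Fos the response in LRT was smaller than in HRT by an estimate of −0.61 on the log2 scale, with a 95% interval of −2.03 to 0.80 (edgeR adjusted p = 0.715 for the difference). For Egr1 the difference, LRT minus HRT, was −0.86, with an interval of −1.89 to 0.18 (edgeR adjusted p = 0.453). Both intervals include equal responses. On the linear scale, as LRT response over HRT response, they run from 0.245 to 1.74 for Fos and from 0.270 to 1.13 for Egr1. For Atf3 the difference was 0.09, with an interval of −1.497 to 1.68 (edgeR adjusted p = 0.972), and its sign turned in 12 of 34 other settings. For Myc the difference was 0.35, with an interval of −0.35 to 1.05 (edgeR adjusted p = 0.673). No member passed the test of the difference in edgeR, DESeq2 or limma-voom, none had an unadjusted edgeR p under 0.05, and 0.048% of all tested genes passed in edgeR.

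**Figure D3:**
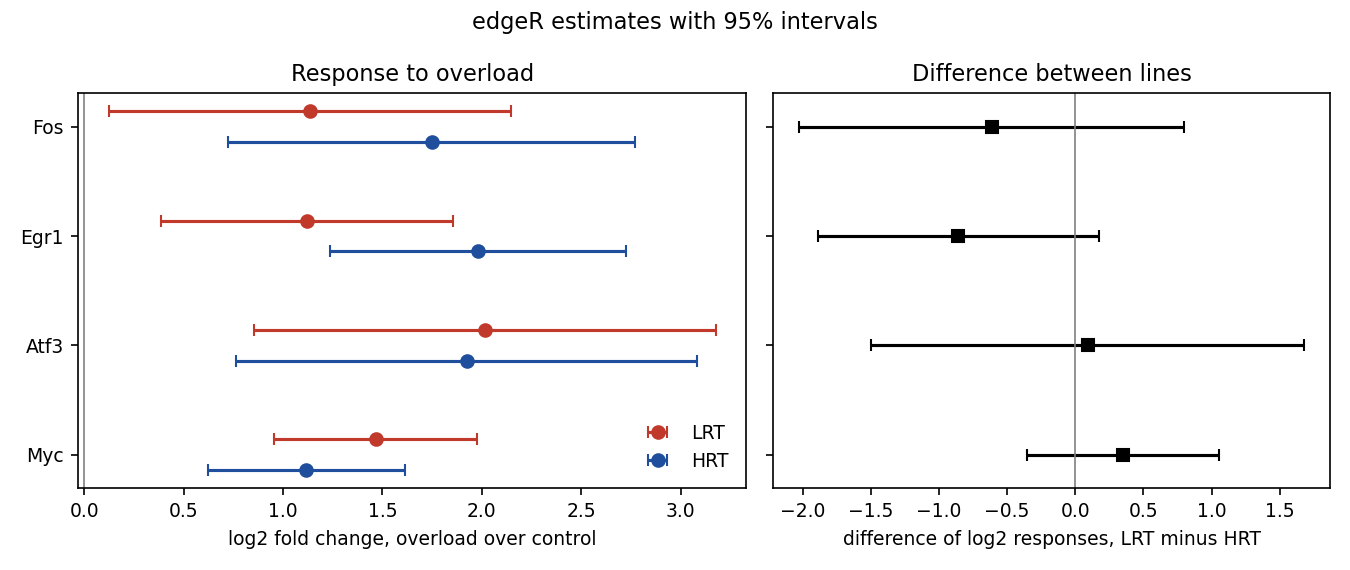
Left, log2 fold change of overload over control for each gene in LRT (red) and HRT (blue), and right, the difference of the responses, LRT minus HRT, with points at the edgeR estimate and bars for the unadjusted 95% interval. The intervals on the left lie above 0 for all 4 genes, the lowest being Fos in LRT at 0.12 to 2.15, and the intervals on the right all include 0.

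The lines were also compared within each state, LRT over HRT. In overloaded muscle the log2 fold changes were −0.58 ± 0.48 for Fos, −0.63 ± 0.34 for Egr1, 0.55 ± 0.54 for Atf3 and −0.12 ± 0.23 for Myc (SE), with edgeR adjusted p of 0.501, 0.276, 0.576 and 0.797. In control muscle they were 0.04 ± 0.49 for Fos, 0.22 ± 0.37 for Egr1, 0.46 ± 0.55 for Atf3 and −0.47 ± 0.25 for Myc, with edgeR adjusted p of 0.981, 0.819, 0.732 and 0.353. No member passed in either state, where 3.09% of tested genes passed in overloaded and 1.97% in control muscle, and none had an unadjusted p under 0.05. The lowest unadjusted p were 0.0754 for Egr1 in overloaded muscle and 0.0719 for Myc in control muscle. The 95% interval for Egr1 in overloaded muscle ran from −1.34 to 0.07, and that for Myc in control muscle from −0.99 to 0.05. The libraries of the lines overlapped for every member in both states.

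The members varied widely between muscles of the same group. The SD of log2 CPM of Fos was 0.89 in LRT overload, 1.07 in LRT control, 0.88 in HRT overload and 0.75 in HRT control, beside medians over all tested genes of 0.21, 0.20, 0.25 and 0.17. Of the tested genes, 96.6% to 98.4% had a smaller SD than Fos in each of the 4 groups. The spread of Fos was wide in control muscle too, where the highest library held 8.16 times the level of the lowest in LRT and 4.11 times in HRT. Without LRT control replicate 3 the ratio in LRT control was 2.78 and the SD 0.66, and without HRT overload replicate 3 the SD in HRT overload was 0.58.

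Atf3 had its widest spread in LRT overload, where the highest library held 22.8 times the level of the lowest. Without replicate 5 the ratio was 4.73 and the SD 0.83. With all libraries its SD was 1.65 there, 0.74 in LRT control, 0.62 in HRT overload and 1.02 in HRT control. Egr1 had an SD of 0.56 in LRT overload, 0.75 in LRT control, 0.70 in HRT overload and 0.51 in HRT control. With all libraries Myc had the lowest SD of log2 CPM of the 4 in each group, with 0.54 in LRT overload, 0.27 in LRT control, 0.42 in HRT overload and 0.48 in HRT control. Myc and Egr1 were close in LRT overload and HRT control, and single libraries turned their order there. Without LRT overload replicate 3 the SD was 0.60 for Myc and 0.52 for Egr1, and without HRT control replicate 1 it was 0.45 and 0.36. In LRT control 64.8% of tested genes had a smaller SD than Myc. These values also leaned on single libraries, since the SD of Myc was 0.32 without LRT overload replicate 5, 0.13 without LRT control replicate 2 and 0.23 without HRT control replicate 6.

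**Figure D4:**
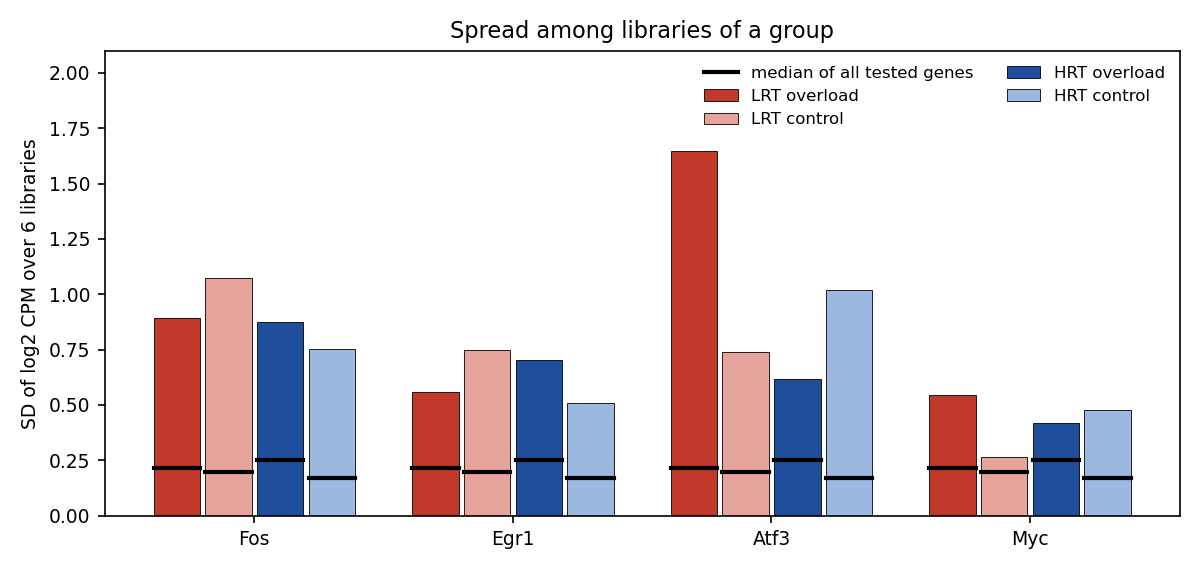
SD of log2 CPM over the 6 libraries of each group (bars) for each gene, with a black line at the median SD over all tested genes in that group. Every bar stands above its line, the highest being Atf3 in LRT overload at 1.65 (0.83 without replicate 5) and the lowest Myc in LRT control at 0.27 (0.13 without replicate 2).

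Single muscles were high or low in several members at once. LRT overload replicate 5 had the lowest Fos, Egr1, Atf3 and Myc of its group. HRT overload replicate 6 had the highest Egr1, Atf3 and Myc of its group, LRT control replicate 2 and HRT control replicate 6 had the highest Fos, Atf3 and Myc of theirs, and HRT overload replicate 3 had the lowest Fos, Egr1 and Myc. All 4 members lay above their group mean in 4 of 24 libraries and below it in 4 of 24. How often other sets of 4 genes do so was not counted, so these counts are not read as a trait of the members. In the control muscles the libraries with the highest Egr1 were LRT control replicate 1, which had the lowest Atf3 and Myc of its group, and HRT control replicate 3, which had the lowest Fos and Atf3.

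**Figure D5:**
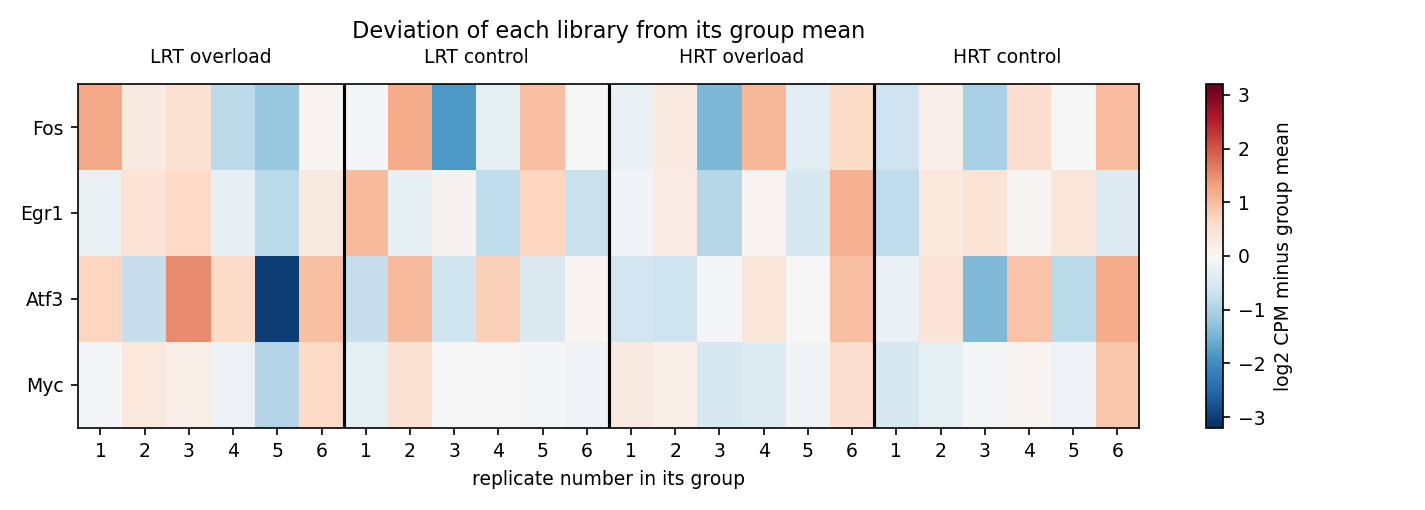
Deviation of each library from the mean of its group in log2 CPM (colour, red above and blue below the mean) for each gene (rows) and library (columns, in replicate order within the 4 groups). LRT overload replicate 5 is blue in all 4 rows and HRT overload replicate 6 is red in all 4.

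Correlations of log2 CPM between members were computed within each group of 6 libraries, 24 in all, with exact two-sided permutation tests. Of the 24 Pearson correlations 19 were positive, 2 had an unadjusted p under 0.05 and none passed adjustment (lowest adjusted p = 0.321). Without the 2 libraries farthest from the median of the first-named gene, 6 of 24 turned sign. The libraries left are few and span a narrower range of that gene, so this check cannot show what a relation rests on. Fos and Atf3 correlated positively in 4 of 4 groups, from 0.36 to 0.86, the highest value being in HRT control (exact permutation p = 0.0333, adjusted p = 0.321). There Spearman's rho was 0.94 (exact permutation p = 0.0167, adjusted p = 0.40), and without the 2 libraries farthest from the median Fos level r was 0.57. Without such libraries r was 0.05 in LRT overload, −0.53 in LRT control and 0.52 in HRT overload, so the LRT groups lost most or all of their positive values. Egr1 and Myc had r = 0.88 in LRT overload (exact permutation p = 0.0236, adjusted p = 0.321), with a rho of 0.77 (exact permutation p = 0.103, adjusted p = 0.525) and an r of 0.87 without the 2 libraries farthest from the median Egr1 level. Egr1 and Atf3 had r = 0.69 in LRT overload and 0.49 in HRT overload, against −0.76 in LRT control and −0.44 in HRT control, and none of these had an exact permutation p under 0.05 (p = 0.121, 0.336, 0.0958 and 0.358). Without the 2 libraries farthest from the median Egr1 level r was negative in every group. It was −0.56 in LRT overload and −0.26 in HRT overload, against −0.56 in LRT control and −0.85 in HRT control. The contrast of signs between the states was thus not seen without those libraries.

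RIN and the overall position of a library were set beside the members in the same way. The use of overall position was chosen after the values had been seen. Within groups the 16 correlations of a member with RIN ran from −0.49 to 0.65, and none had an exact permutation p under 0.05 (lowest adjusted p = 0.94). The overall position was the first principal component of log2 CPM over all tested genes, members included, which held 57.0% of the variance and ran with overload. On this axis Myc correlated positively in 4 of 4 groups, with r = 0.67 in LRT overload, 0.88 in LRT control, 0.97 in HRT overload and 0.60 in HRT control. The correlation in HRT overload had an exact permutation p of 0.00556 (adjusted p = 0.0889 over 16 relations) and a rho of 0.89 (exact permutation p = 0.0333, adjusted p = 0.267). Without the 2 libraries farthest from the median on the axis, r was −0.17 in LRT overload and 0.03 in LRT control. It was 0.89 in HRT overload and −0.25 in HRT control, so the positive relation was kept in HRT overload alone. The libraries left are few and span a narrower part of the axis, so this check cannot show what the relation rests on. In LRT control the r of 0.88 had an exact permutation p of 0.0194 (adjusted p = 0.156). Its rho was 0.66 (exact permutation p = 0.175, adjusted p = 0.43). LRT overload replicate 5, lowest in all 4 members, was also the lowest overload library on this axis, at 13.9, where the other overload libraries lay between 30.0 and 87.3 and control libraries between −59.9 and −43.7. Its RIN was 8.7, the median of its group, and the part of RIN in the overload results was not tested beyond the fits with RIN as a covariate.

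Likeness to other genes was measured by Pearson's r of log2 CPM over 24 libraries after each group's mean had been taken off, among 13742 genes of sufficient level. The gene most like Myc was ENSRNOG00000006004, with r = 0.88, which itself rose with overload by 0.44 in LRT and 0.52 in HRT on the log2 scale (edgeR adjusted p = 5.53e-06 and 4.24e-07). The gene most like Atf3 was ENSRNOG00000045831, with r = 0.85, which rose by 0.74 in LRT and 0.50 in HRT (edgeR adjusted p = 0.00468 and 0.0427). The genes most like Fos and Egr1 had r of 0.82 and 0.83. Among the members, Atf3 and Myc had r = 0.56, Fos and Atf3 0.54, Fos and Myc 0.48, Egr1 and Myc 0.34, Fos and Egr1 0.33, and Egr1 and Atf3 0.07. These values pool the 4 groups, and within single groups the r of Atf3 and Myc ran from 0.03 to 0.75. LRT overload replicate 5 lay farthest from its group mean in both genes, at −3.00 for Atf3 and −0.95 for Myc in log2 CPM. The likeness values and the counts below were not computed again without it, so how far they rest on it was not tested. Of the 13742 genes, 107 were more like Atf3 than Myc was, and 908 were more like Myc than Atf3 was. For Fos and Atf3, in this order, the counts were 165 and 129, and for Fos and Myc 347 and 1566. For Egr1 and Myc they were 1582 and 2916, for Fos and Egr1 1438 and 1722, and for Egr1 and Atf3 5450 and 5735. The members were thus not each other's closest genes.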

How the data were processed

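Total RNA of the plantaris was turned into libraries with the Illumina TruSeq kit, per the labels' protocols. The deposited table holds estimated counts per Ensembl gene, not normalized. Salmon 0.9.1 was used with the builds rn6 and Rnor_6.0, per the submitters' processing notes, while annotation and settings are not given in the sources that were used. Among deposited values of 1 or more, 2.62% were whole to within 0.001.

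Counts were rounded, filtered with filterByExpr (minimum count 10, minimum total 15) and scaled by TMM. A quasi-likelihood model with 1 mean per group and robust dispersion was fitted to the 24 libraries (edgeR 4.0.16, R 4.3.3), which therefore share 1 dispersion per gene. Groups came from the titles. The contrasts were overload over control within a line, the LRT minus HRT difference of these, and LRT over HRT within a state. SE was taken as the size of the log2 fold change divided by the root of F, and intervals use the model's degrees of freedom. Library totals ran from 26997674 to 34254957. No pair of libraries within a group was a duplicate (60 pairs, chi-square per degree of freedom at least 13.9).

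Alternatives were DESeq2 1.42.0, limma-voom (limma 3.58.1), other scalings and filters, dispersion without robust estimation, terms for RIN and replicate number, fits to the compared groups only, and fits without 1 library. The spread of members without 1 library was added after seeing the data. Exact permutation tests enumerated all pairings in Python 3.11.15, and plots used matplotlib 3.10.9.

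The members and lists were chosen with earlier results of these data known. The named genes are the members and, for each, the gene of highest likeness, of which 2 IDs are printed. Of the 31998 IDs, 0 matched the 47357 genes of the name table (GRCr8), so 10 symbol lists of pathways and cell types were not used.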

Additional observations from a re-analysis of the deposited data

How the results depend on the processing

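All calls of a rise (Egr1, Atf3 and Myc in LRT, and the 4 genes in HRT) kept their direction and side of the threshold under each of the 23 other settings run for them. Fos in LRT, not called in the model reported, was called with DESeq2 (log2 fold change 1.15), limma-voom (1.199), scaling by library totals (1.37), a stricter filter (1.18), dispersion without robust estimation (1.13), the replicate block (1.32) and the replicate block with RIN (1.53). With single libraries left out its log2 fold change ran from 0.81 to 1.41, and the call was made in 4 of 12 such fits. Fos in LRT was not called with RIN as a covariate (1.29), no filter (1.17), the compared groups alone (1.19) or DESeq2 size factors (1.15). Signs turned for results that passed in no setting. The Atf3 difference between responses was −0.44 with limma-voom, −0.11 with the replicate block, −0.46 with the replicate block with RIN, and from −0.22 to 0.36 with single libraries left out. Fos, LRT against HRT in control muscle, was −0.087 with limma-voom, −0.030 with scaling by library totals, and from −0.24 to 0.28 with single libraries left out. With single libraries left out, Myc in overloaded muscle ran from −0.26 to 0.019 and Egr1 in control muscle from −0.030 to 0.36. The causes were not tested. Over all genes, the count called was 140 with DESeq2 for the difference between responses, against 8. It was 2 with limma-voom and with RIN, 1 with DESeq2 size factors and with either replicate block, 5 with no filter and without robust estimation, and 12 with the stricter filter. For the lines in control muscle the count was 619 with DESeq2 and 206 with no filter, against 328. In overloaded muscle it was 1093 with DESeq2, 2153 with library totals, 785 with RIN, 307 with no filter, 289 with the replicate block with RIN and 115 with the compared groups alone, against 514. For overload in HRT it was 7230 with the replicate block with RIN, against 10523. Leaving out 1 library moved these counts too. In overloaded muscle LRT and HRT differed at 171 genes when LRT overload replicate 3 was dropped, the lowest count of 12 fits, and the highest, 1647, came on dropping HRT overload replicate 3. Dropping LRT overload replicate 2 or HRT overload replicate 4 gave 1547 and 1426. In control muscle the lowest count was 154, on dropping HRT control replicate 4, and the highest was 495, on dropping LRT control replicate 2. For the difference between responses 24 such fits gave 1 to 25 genes, the highest on dropping HRT overload replicate 4.

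The labels do not tie same-numbered libraries to an animal, and the rule used for pairing (every pair over 0.1) was not met. Between LRT overload and LRT control 1 of 6 pairs had a correlation of deviations over 0.1, between HRT overload and HRT control 0 of 6, between LRT overload and HRT overload 3 of 6, and between LRT control and HRT control 0 of 6. At most 2 of 6 libraries of a group were most like the library of their own number. The replicate block gave 9494 calls for overload in LRT and 10570 in HRT, against 9524 and 10523 without it. Each member had at least 67 counts in every library, and each group had 6 libraries.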
